A study of Mus musculus with 4 samples.

Results

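The cell cycle and DNA replication genes examined were 41 mouse genes, among 30186 named genes with a probe on the array. They were chosen by name for their known roles. The rule uses no level, but earlier results of these data were known when it was written. Of these genes, 17 act in the licensing and copying of DNA in S phase, 22 act in G2 and mitosis, and 2 encode inhibitors of cyclin-dependent kinases (CDKs). Levels were read in ACKR4-positive and ACKR4-negative endothelial cells sorted from mouse spleen, on 1-colour Agilent arrays with 2 arrays per group. All mice, including those that gave the ACKR4-negative cells, were heterozygous for a GFP reporter at the Ackr4 locus (Ackr4GFP/wt), so GFP marks transcription of that locus and 1 Ackr4 allele is altered in both groups. The labels give no strain background, age or sex. Digestion of the spleens took 45 min and a further 20 min at 37 °C, red cells were lysed, and cells bearing CD45 were depleted. Cells without CD45 and with the endothelial protein CD31 were then sorted by GFP. Each of 2 replicates gave 1 array of each group, from 6 to 20 ng of RNA, and the replicate number is read here as the sort. The protocol states that 2 to 3 mice were pooled per sort, while the titles give each replicate a single mouse number. The p-values of the main fit therefore measure the spread between the sorts within each group. Where sort number is added as a replicate block, they measure how the group difference varies between the 2 sorts. How many mice stand behind each array is not settled.

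A dividing cell first licenses its replication origins. Cdt1 and Cdc6 load the MCM helicase onto DNA, geminin blocks Cdt1, and cyclin E with CDK2 starts S phase under control of E2F transcription factors. Genes needed for DNA synthesis are typically E2F targets. Genes of G2 and mitosis are switched on later, through the FoxM1 and B-MYB factors and the MuvB complex at the cell cycle genes homology region (CHR) and through NF-Y at CCAAT boxes. CDK inhibitors of the p21 and p57 family hold cells out of the cycle. Most endothelial cells of adult organs are quiescent and transcribe little of the mitotic programme.

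These elements were looked for in the promoters of the cell cycle genes. RefSeq promoter sequences (GRCm38.p6) were at hand for 33 of the 41 genes, and the 250 bases before the start site were searched on both strands. The letters searched were TTTCCCGC, TTTCGCGC, TTTGCCGC and TTTGGCGC for E2F, TTTGAA for the CHR, and CCAAT for the CCAAT box. E2F letters occurred in 28.6% of 14 S phase promoters and in 5.56% of 18 promoters of G2 and mitosis genes, against 1.91% of 27025 gene promoters. CHR letters occurred in 7.14%, 38.9% and 16.3% of the same sets, and CCAAT letters in 57.1%, 88.9% and 34.5%. With the first 50 bases after the start site included, the CHR share of G2 and mitosis promoters was 72.2%, against 18.1% of all. A match is a run of letters and not a shown binding site. Promoters of 4 genes are shown: Mcm6, whose level was close between the groups, Mki67 and Ccnb2, which differed mainly in sort 1, and Aurka, which was lower in both sorts. They run 5′ to 3′ on the gene's own strand, which is the minus strand for all 4, with matches in capitals (ATTGG is CCAAT on the other strand). Mcm6 (chr1:128359706-128359955) carries 3 E2F matches, of which 2 overlap, and 2 CCAAT boxes. Mki67 (chr7:135716380-135716629) carries 2 CHR matches and 3 CCAAT boxes. Ccnb2 (chr9:70421555-70421804) carries 1 CHR match and 3 CCAAT boxes, and Aurka (chr2:172370571-172370820) carries 2 CCAAT boxes.
Mcm6: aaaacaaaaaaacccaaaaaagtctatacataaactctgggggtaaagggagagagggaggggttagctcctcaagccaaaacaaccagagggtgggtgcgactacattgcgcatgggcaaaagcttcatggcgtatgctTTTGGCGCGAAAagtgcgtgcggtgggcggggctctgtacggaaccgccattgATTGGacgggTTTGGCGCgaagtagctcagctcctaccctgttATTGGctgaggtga
Mki67: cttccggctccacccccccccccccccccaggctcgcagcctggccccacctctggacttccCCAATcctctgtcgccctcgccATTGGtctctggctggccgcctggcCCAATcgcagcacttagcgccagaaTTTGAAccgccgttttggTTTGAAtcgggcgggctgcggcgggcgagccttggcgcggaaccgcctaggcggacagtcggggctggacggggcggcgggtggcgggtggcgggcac
Ccnb2: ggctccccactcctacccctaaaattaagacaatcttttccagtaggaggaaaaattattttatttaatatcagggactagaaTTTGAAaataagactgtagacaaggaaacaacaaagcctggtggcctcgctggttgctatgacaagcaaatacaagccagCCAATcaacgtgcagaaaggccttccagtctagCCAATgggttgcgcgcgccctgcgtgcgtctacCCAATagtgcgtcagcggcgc
Aurka: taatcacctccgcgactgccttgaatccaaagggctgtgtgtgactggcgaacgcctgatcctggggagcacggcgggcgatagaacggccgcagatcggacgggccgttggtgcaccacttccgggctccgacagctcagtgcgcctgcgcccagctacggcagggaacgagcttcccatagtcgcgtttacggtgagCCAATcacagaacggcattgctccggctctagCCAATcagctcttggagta

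Signal was well above background for 54.9% to 58.3% of 39429 probes per array, and all 4 arrays came from 1 slide and 1 scan. Ackr4 checks the sort and is no finding, because the cells were chosen by its locus. Its levels were -0.21 and 2.55 on the ACKR4-positive arrays, against -7.53 and -7.50 on the ACKR4-negative arrays, where it was not well above background. A level is the log2 signal of the gene's brightest tested probe minus the array's 75th percentile, so levels compare arrays and not genes. All 10 pan-endothelial markers, among them Pecam1 (CD31) and Cdh5, were well above background on all 4 arrays. Group differences were tested with limma over 17360 genes, with Benjamini-Hochberg adjustment and a threshold of 0.05. Of these genes, 5.62% were called, 1.91% higher and 3.71% lower in ACKR4-positive cells. With sort number as a replicate block, 6.76% were called higher and 8.55% lower.

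Of the 41 cell cycle genes, 32 had a probe that could be tested, and 27 were well above background on all 4 arrays. E2f1, Tk1, Birc5, Nusap1 and Plk1 passed the filter only through the ACKR4-negative group, each being well above background on 1 of the 2 ACKR4-positive arrays. Among the 32, 1 gene fell in ACKR4-positive cells, the CDK inhibitor gene Cdkn1c, and 0 rose. This share is close to the 3.71% of all genes that were called lower. At an unadjusted p under 0.05, limma gave 6 lower and 0 higher, against 9.14% and 7.13% of all tested genes. The 6 were Cdkn1c, Cdt1, E2f1, Aurka, Kif20a and Mki67. Under the replicate block, 4 of 32 were called lower and 0 higher, against 8.55% and 6.76% of all tested genes. The 4 were Cdkn1c, Cdt1, E2f1 and Aurka, of which E2f1 had passed the filter only through the ACKR4-negative group. The levels of the 2 groups did not overlap for 19 of the 32 genes. In 17 of these ACKR4-positive cells were lower, against 21.6% of all tested genes, and in 2, Mcm2 and Mcm4, they were higher, against 23.3%. Of the 17, 4 had passed the filter only through the ACKR4-negative group, while 13 were among the 27 genes above background throughout. In bulk RNA, fewer cells of a type and less RNA per cell cannot be told apart.

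**Figure D1:**
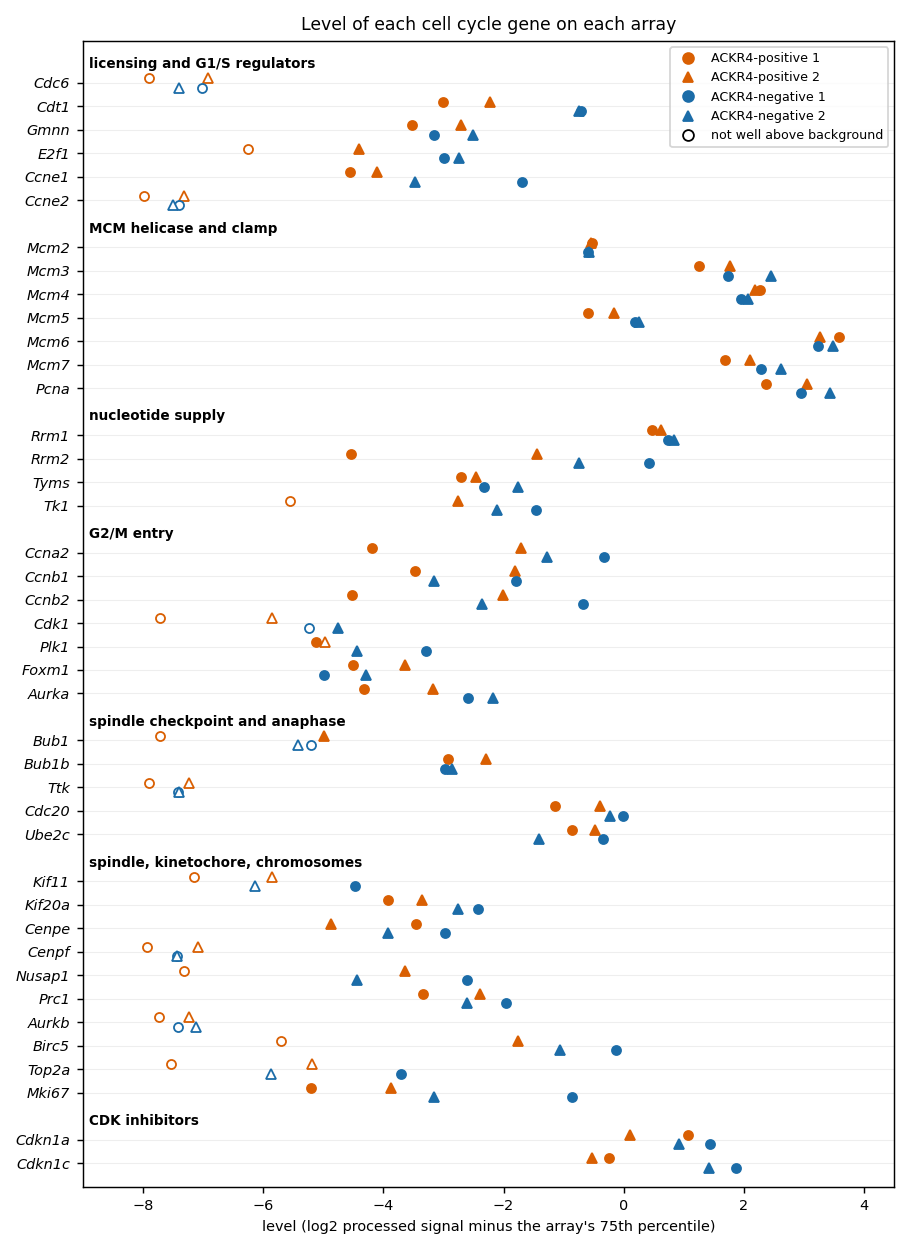
Level of each of the 41 cell cycle genes on each array, as log2 processed signal minus the array's 75th percentile, grouped by role. Orange symbols are ACKR4-positive and blue symbols ACKR4-negative arrays, circles are sort 1 and triangles sort 2, and hollow symbols were not well above background. Cdkn1c separates the groups, while Birc5, Rrm2 and Tk1 are lowest on ACKR4-positive array 1.

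Cdkn1c encodes p57, a CDK inhibitor whose gene is imprinted and active from the maternal copy in mice. Its levels were -0.25 and -0.53 on the ACKR4-positive arrays, against 1.87 and 1.42 on the ACKR4-negative arrays. The groups were far apart and the arrays of each group close together. The log2 fold change was -2.04 ± 0.31 (SE of the limma fit, n = 2 arrays per group, adjusted p = 0.0399), which is 4.10-fold lower, and the difference was -2.12 in sort 1 and -1.95 in sort 2. The probe lies on chromosome 7 at 150644753 to 150644812 (mm9). Leaving out any 1 of the 4 arrays ended the call (limma adjusted p = 0.121 to 0.256), as did fits without a filter on dim probes (adjusted p = 0.0546) and with a stricter one (adjusted p = 0.0507). The fold change stayed between -2.26 and -1.81 in those fits.

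Cdkn1a encodes p21, a CDK inhibitor induced by p53. Its brightest probe read 1.07 and 0.10 in ACKR4-positive cells, against 1.43 and 0.91 in ACKR4-negative cells, which overlap. The difference of -0.59 ± 0.45 was not called (limma adjusted p = 0.674). The other 2 probes of Cdkn1a gave 0.05 and 0.24, so its probes differ in sign. Of the 6 other CDK inhibitor genes, 5 were tested and limma called 0. At an unadjusted p under 0.05 it gave 1 higher and 1 lower, against 7.13% and 9.14% of all tested genes. The replicate block called Cdkn2c (p18) higher at 1.15 and Cdkn2b (p15) lower at -1.52 (limma adjusted p = 0.0251 and 0.0112 with the block, 0.239 and 0.223 without). These 2 genes are named after their values were seen.

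The licensing and G1/S regulators had a median log2 fold change of -1.81 over 4 tested genes of 6, and of -1.01 over all 6 without the filter. Cdt1, which loads the MCM helicase, had levels of -3.01 and -2.22 in ACKR4-positive cells, against -0.72 and -0.74 in ACKR4-negative cells. Both ACKR4-positive arrays were lower than both ACKR4-negative arrays. Its log2 fold change of -1.89 ± 0.37 missed the threshold (limma adjusted p = 0.0713) and passed it with the replicate block (adjusted p = 0.0120). E2f1, the founding member of the E2F family, read -6.25 and -4.40 in ACKR4-positive cells, where array 1 was not well above background. In ACKR4-negative cells E2f1 read -2.99 and -2.74. The groups did not overlap, and, resting in part on that background reading, the difference of -2.46 ± 0.67 was called with the replicate block (limma adjusted p = 0.0184, and 0.160 without it).

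Ccne1, the cyclin E1 gene, had levels of -4.55 and -4.10 in ACKR4-positive cells, against -1.70 and -3.48 in ACKR4-negative cells. The difference came mostly from sort 1, at -2.85 against -0.62 in sort 2, and was not called (limma adjusted p = 0.314). Gmnn, which encodes geminin, read -3.52 and -2.72 in ACKR4-positive cells and -3.15 and -2.51 in ACKR4-negative cells. These levels overlapped, with a difference of -0.29 ± 0.43. Cdc6, the licensing partner of Cdt1, and Ccne2, the cyclin E2 gene, were well above background on 0 of 4 arrays.

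The 6 MCM helicase genes and Pcna, the sliding clamp of DNA polymerases, were well above background on all 4 arrays. Limma called 0 of the 7, and at an unadjusted p under 0.05 also 0. Their log2 fold changes ran only from -0.60 to 0.21, with a median of -0.49. Mcm6 had levels of 3.57 and 3.26 in ACKR4-positive cells, against 3.23 and 3.47 in ACKR4-negative cells. The groups overlapped, and the difference of 0.06 ± 0.29 had a 95% interval from -0.71 to 0.83. Mcm2 and Mcm4 were slightly higher in both sorts, at 0.04 and 0.21 on average.

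The other helicase subunits and the clamp were lower in both sorts. Mcm5 read -0.59 and -0.17 in ACKR4-positive cells, against 0.19 and 0.25 in ACKR4-negative cells (-0.60 ± 0.30, limma adjusted p = 0.458). Mcm7 read 1.68 and 2.09 in ACKR4-positive cells, against 2.29 and 2.62 in ACKR4-negative cells (-0.57 ± 0.31, limma adjusted p = 0.515). For both genes the groups did not overlap, by less than 0.5 between their nearest arrays. Mcm3, at -0.58 ± 0.39, and Pcna, at -0.49 ± 0.38, had overlapping levels, with the lowest on ACKR4-positive array 1 and the highest on ACKR4-negative array 2.

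The brightest probes of the 4 nucleotide supply genes read lower in ACKR4-positive cells in both sorts. Limma called 0 of them, also at an unadjusted p under 0.05. Rrm2, the S phase subunit of ribonucleotide reductase, had levels of -4.54 and -1.45 in ACKR4-positive cells, against 0.42 and -0.75 in ACKR4-negative cells. Its difference was -4.96 in sort 1 and -0.70 in sort 2, and the mean of -2.83 ± 1.13 was not called (limma adjusted p = 0.335). Tk1, thymidine kinase, read -5.56 and -2.76 in ACKR4-positive cells, against -1.46 and -2.11 in ACKR4-negative cells. On ACKR4-positive array 1 this probe lay at background, so its sort 1 difference of -4.10 is set against a background reading, and sort 2 gave -0.65 (limma adjusted p = 0.361). The other tested Tk1 probe was well above background on all 4 arrays and differed by -2.80 in sort 1 and 0.25 in sort 2, so the probes disagree in sort 2. Rrm1, the large reductase subunit, and Tyms, thymidylate synthase, differed by -0.24 ± 0.27 and -0.53 ± 0.33, with the same sign in both sorts.

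Genes of entry into mitosis had a median log2 fold change of -1.27 over 6 tested genes of 7, and of -1.37 over all 7 without the filter. Aurka, the Aurora A kinase of spindle poles, had levels of -4.32 and -3.18 in ACKR4-positive cells, against -2.59 and -2.17 in ACKR4-negative cells. Both sorts gave a lower level, with differences of -1.73 and -1.01. The log2 fold change of -1.37 ± 0.48 was called with the replicate block (limma adjusted p = 0.0280) and not without it (adjusted p = 0.269). Plk1, the Polo-like kinase, read -5.13 and -4.97 in ACKR4-positive cells, where array 2 was not well above background, against -3.30 and -4.44 in ACKR4-negative cells. That difference of -1.18 ± 0.46 was not called (limma adjusted p = 0.329).

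The mitotic cyclins were lower in ACKR4-positive cells in sort 1, and the cyclin B genes were higher in sort 2. Ccna2, cyclin A2, read -4.19 and -1.70 in ACKR4-positive cells, against -0.33 and -1.28 in ACKR4-negative cells. Ccnb2, cyclin B2, read -4.52 and -2.01 in ACKR4-positive cells, against -0.69 and -2.37 in ACKR4-negative cells. Ccnb1, cyclin B1, read -3.48 and -1.82 in ACKR4-positive cells, against -1.79 and -3.16 in ACKR4-negative cells. In sort 1 Ccna2 differed by -3.86, Ccnb2 by -3.83 and Ccnb1 by -1.69. In sort 2 Ccna2 differed by -0.42, Ccnb2 by 0.35 and Ccnb1 by 1.35. None was called (limma adjusted p = 0.384 for Ccna2, 0.557 for Ccnb2 and 0.961 for Ccnb1). Foxm1, the factor that drives many mitotic genes, went the other way in both sorts, at 0.57 ± 0.45 (adjusted p = 0.693). Cdk1, the mitotic kinase, was well above background on ACKR4-negative array 2 alone and was not tested.

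**Figure D2:**
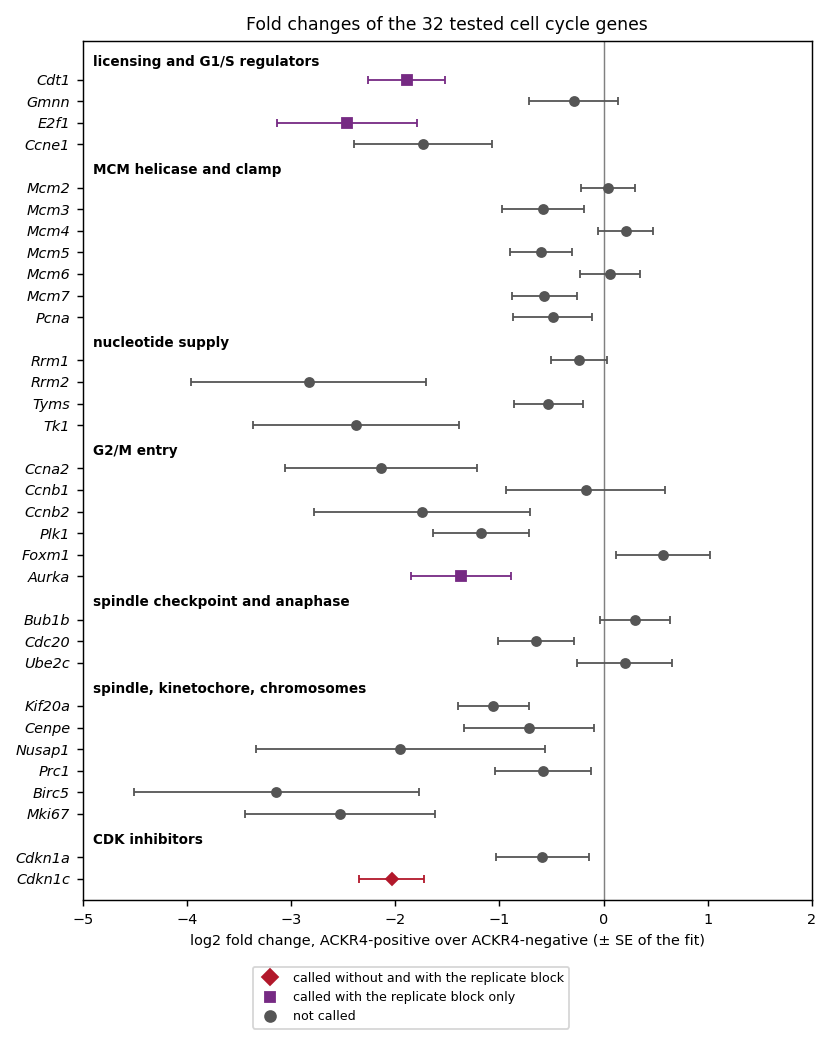
Log2 fold change of ACKR4-positive over ACKR4-negative cells for the 32 tested genes, grouped by role, with bars of 1 SE of the limma fit (2 arrays per group). The red diamond is Cdkn1c at -2.04, and purple squares are Cdt1, E2f1 and Aurka, called with the replicate block only. MCM genes lie near 0 with short bars, while Birc5, Rrm2, Mki67 and Tk1 lie below -2 with long bars.

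Of 5 genes of the spindle checkpoint and of anaphase, 3 were tested, and their brightest probes differed by -0.65 to 0.30. Cdc20, an activator of the anaphase-promoting complex, read -1.15 and -0.40 in ACKR4-positive cells, against -0.02 and -0.23 in ACKR4-negative cells. Its difference of -0.65 ± 0.37 was not called (limma adjusted p = 0.530). Bub1b, the checkpoint kinase BubR1, differed by 0.30 ± 0.34. Ube2c, a ubiquitin-conjugating enzyme of that complex, differed by 0.20 ± 0.46 on its brightest probe and by -2.38 on its other tested probe, so its probes disagree. Bub1 was well above background on ACKR4-positive array 2 alone, and Ttk on 0 of 4 arrays.

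Of 10 spindle, kinetochore and chromosome genes, 6 were tested, and all 6 were lower in ACKR4-positive cells on average, with a median of -1.50. Birc5 and Nusap1 among them passed the filter only through the ACKR4-negative group. Over all 10 without the filter the median was -1.12, with -2.09 in sort 1 and 0.05 in sort 2. Limma called 0 of the 6. At an unadjusted p under 0.05 it gave 2 lower, Kif20a and Mki67, against 9.14% of all tested genes. Mki67 encodes Ki-67, the common marker of cycling cells. It read -5.21 and -3.88 in ACKR4-positive cells, against -0.87 and -3.15 in ACKR4-negative cells. ACKR4-negative array 1 stood above the other 3 arrays, and the difference of -2.53 ± 0.91 (limma adjusted p = 0.285) was made of -4.34 in sort 1 and -0.73 in sort 2. The other tested Mki67 probe gave -4.04 in sort 1 and 0.06 in sort 2, so the sign in sort 2 depends on the probe. Birc5, survivin of the chromosomal passenger complex, read -5.71 and -1.76 in ACKR4-positive cells, where array 1 was not well above background. In ACKR4-negative cells Birc5 read -0.13 and -1.06. Its difference was -0.70 in sort 2 and -5.58 in sort 1, where it is set against a background reading. The fitted mean of -3.14 ± 1.37 rests on that reading (limma adjusted p = 0.390).

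Kif20a, a kinesin of cytokinesis, read -3.92 and -3.36 in ACKR4-positive cells, against -2.42 and -2.75 in ACKR4-negative cells. The groups did not overlap, and -1.06 ± 0.34 was not called (limma adjusted p = 0.225). Nusap1, a spindle microtubule protein, read -7.31 and -3.64 in ACKR4-positive cells, where array 1 was not well above background, against -2.61 and -4.44 in ACKR4-negative cells. Its difference was 0.80 in sort 2 and -4.70 in sort 1, again against a background reading. Prc1, which bundles the central spindle, differed by -0.58 ± 0.46, made of -1.38 in sort 1 and 0.21 in sort 2. Cenpe, a kinetochore motor, differed by -0.71 ± 0.62. Kif11 and Top2a, a spindle motor and topoisomerase II alpha, were well above background on ACKR4-negative array 1 alone. Cenpf and the passenger kinase gene Aurkb were so on 0 of 4 arrays.

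The S phase and mitosis genes are set side by side by sort, each sort being 1 array per group. The 15 tested S phase genes had a median log2 fold change of -0.57, made of -0.58 in sort 1 and -0.53 in sort 2. The 15 tested mitosis genes had a median of -1.06, made of -1.69 in sort 1 and -0.17 in sort 2. Over all tested genes these medians were 0.04, -0.00 and 0.05. With every gene of each class and no filter, the medians were -0.53 over 17 S phase genes and -1.05 over 22 mitosis genes. Over genes well above background on all 4 arrays they were -0.53 over 13 and -0.68 over 12. The sort 2 median of the mitosis genes turned sign with the set, at 0.02 over those 12 genes and 0.19 over all 22 without the filter. In sort 1 these sets gave -1.44 and -1.71. Of the S phase genes, 12 of 15 were lower in ACKR4-positive cells in sort 1 and 13 in sort 2. Of the mitosis genes, 13 of 15 were lower in sort 1 and 8 in sort 2. The difference between the classes was not tested.

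Large differences sat in sort 1. In that sort 17 of 32 genes were lower by over 1 on the log2 scale in ACKR4-positive cells, against 10.9% of all tested genes, and 11 of the 17 were mitosis genes. The 17 hold all 5 genes that passed the filter only through the ACKR4-negative group. Among the 27 genes well above background on all 4 arrays the count was 12, with 8 mitosis genes. In sort 2 this held for 4 of 32 genes, against 9.76% of all. The 4 were Cdkn1c, Cdt1, E2f1 and Aurka, which were the genes called with the replicate block. Of these, E2f1 had passed only through the ACKR4-negative group.

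**Figure D3:**
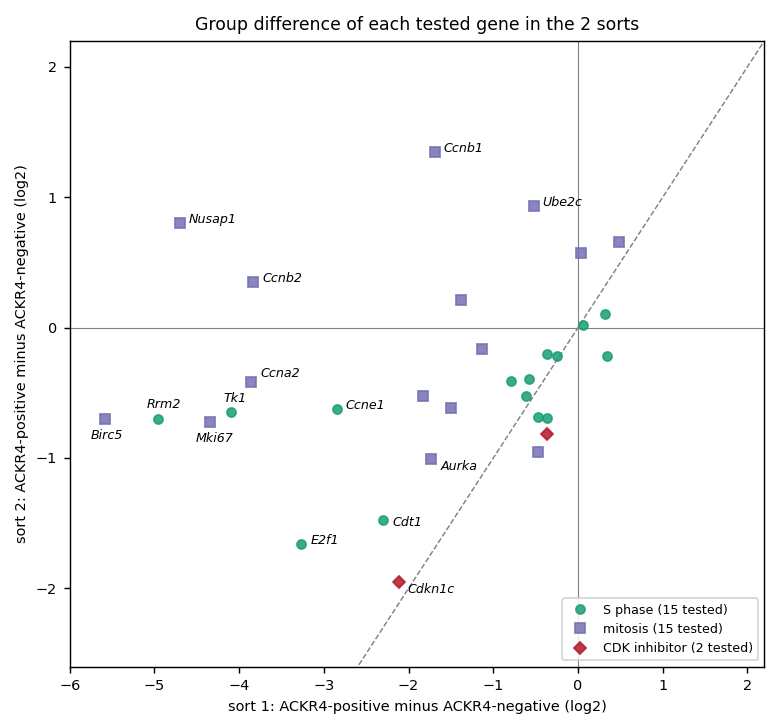
Difference of ACKR4-positive minus ACKR4-negative cells in sort 1 (horizontal, log2) and sort 2 (vertical, log2) for the 32 tested genes. Green circles are S phase genes, violet squares mitosis genes and red diamonds CDK inhibitors, and the dashed line marks equal differences. Cdkn1c, at -2.12 and -1.95, lies near the line, while Birc5, Rrm2, Nusap1 and Mki67 lie far to the left, with sort 2 values between -0.73 and 0.80. The sort 1 values of Birc5, Nusap1, Tk1 and E2f1 are set against a reading not well above background.

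Arrays of the same group differed too. Between the 2 ACKR4-positive arrays, array 1 was lower than array 2 by over 1 for 10 of 32 genes, against 11.0% of all tested genes, and 7 of the 10 were mitosis genes. Of the 10, E2f1, Tk1, Birc5 and Nusap1 were not well above background on array 1, and among the 27 genes above background throughout the count was 6, with 5 mitosis genes. Between the 2 ACKR4-negative arrays the same held for 0 of 32, against 7.37%. The median difference of array 1 minus array 2 over mitosis genes was -0.95 in ACKR4-positive cells and 0.94 in ACKR4-negative cells. Over S phase genes it was -0.45 in ACKR4-positive and -0.13 in ACKR4-negative cells, and over all tested genes -0.18 and -0.13. Single arrays moved these medians. Without ACKR4-positive array 1 the mitosis median was -0.38 and the S phase median -0.36, and the S phase median was -0.25 without ACKR4-negative array 2. Leaving out 1 array also changed which of the 32 genes limma called, and each such fit rests on 1 array in 1 group. Normexp background correction, which raises dim signals, gave a mitosis median of -0.60.

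Markers of other cells moved with some of these arrays. Linear levels, scaled to the 75th percentile of the array, summed to 1.79 and 3.62 for the 22 mitosis genes in ACKR4-positive cells, against 6.30 and 3.53 in ACKR4-negative cells. The 14 erythroid markers summed to 19.4 and 70.5 in ACKR4-positive cells, against 488 and 31.7 in ACKR4-negative cells. Both sums were lowest on ACKR4-positive array 1 and highest on ACKR4-negative array 1. Erythroid precursors divide, and the mouse spleen holds some. Of the 14 markers, 7 and 6 were well above background on the ACKR4-positive arrays, against 13 and 9 on the ACKR4-negative arrays. Of 9 tested erythroid markers, limma called 3 lower, Gata1, Epor and Car2, against 3.71% of all tested genes. Gata1 and Epor passed the filter only through the ACKR4-negative group. In sort 1, 8 of the 9 were lower in ACKR4-positive cells, and in sort 2 only 4, with medians of -4.53 and 0.32. Gata1 read 0.59 and 0.92 on ACKR4-negative arrays 1 and 2, and Epor -1.09 and -1.03, so both were slightly higher on array 2. Klf1 and Rhag were well above background on ACKR4-negative array 1 alone, and Epb42 on 0 of 4 arrays. The part of erythroid RNA in the mitosis gene levels was not tested. Spike-in controls had a median signal of 2749 and 2902 on the ACKR4-positive arrays, against 837 and 3489 on the ACKR4-negative arrays.

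The 12 megakaryocyte and platelet markers summed to 1.28 and 2.80 in ACKR4-positive cells, against 105 and 239 in ACKR4-negative cells. Limma called 10 of them lower, against 3.71% of all tested genes. Of the 12, 6 passed the filter only through the ACKR4-negative group, and these 6 were among the 10. The sum of the 12 was higher on ACKR4-negative array 2, where the mitosis sum was the lower of that group. The 8 mural and smooth muscle markers summed to 2.24 and 2.36 in ACKR4-positive cells, against 56.0 and 83.9 in ACKR4-negative cells. The 7 fibroblastic reticular markers with a probe summed to 0.811 and 0.617 in ACKR4-positive cells, against 2.21 and 2.32 in ACKR4-negative cells. Of 5 tested, limma called 0, and 3 were called lower with the replicate block, against 8.55% of all tested genes. Cxcl13, among those called with the block, passed the filter only through the ACKR4-negative group. The sums of these 3 lists (megakaryocyte and platelet, mural, fibroblastic reticular) were lower in ACKR4-positive cells in each sort, as Cdkn1c was. So were the pan-endothelial, S phase, T cell, and granulocyte and monocyte sums given below, while the macrophage and the B and plasma cell sums were higher. The part of any list in the Cdkn1c difference was not tested. The 10 pan-endothelial markers summed to 393 and 520.2 in ACKR4-positive cells, against 529 and 558 in ACKR4-negative cells. Without Cldn5, the brightest, the other 9 summed to 129.7 and 94.9 in ACKR4-positive cells, against 244 and 188 in ACKR4-negative cells. Limma called 3 of the 10 lower, Kdr at -2.71, Emcn at -5.24 and Esam at -1.92, and 0 higher. The shares of all tested genes were 3.71% and 1.91%. The replicate block called 3 lower and 1 higher, the latter at 1.81, against 8.55% and 6.76% of all tested genes. The S phase genes summed to 30.7 and 34.3 in ACKR4-positive cells, against 35.7 and 43.6 in ACKR4-negative cells. The 8 macrophage markers summed to 36.6 and 45.8 in ACKR4-positive cells, against 25.0 and 28.7 in ACKR4-negative cells. Most of that sum was Vcam1, which endothelium also makes, and the other 7 summed to 1.18 and 1.58 in ACKR4-positive cells, against 1.20 and 2.50 in ACKR4-negative cells. The B and plasma cell list summed to 4.59 and 7.60 in ACKR4-positive cells, against 1.27 and 3.59 in ACKR4-negative cells. Its brightest marker was Sdc1, at 4.28 and 2.94 in ACKR4-positive cells, against 0.648 and 0.490 in ACKR4-negative cells. The other 7 summed to 0.309 and 4.66 in ACKR4-positive cells, against 0.626 and 3.102 in ACKR4-negative cells. Without Sdc1 the sum was thus lower in ACKR4-positive cells in sort 1 and higher in sort 2. T cell markers summed to 3.30 and 5.71 in ACKR4-positive cells, against 5.61 and 6.16 in ACKR4-negative cells, and granulocyte and monocyte markers to 1.96 and 3.70 in ACKR4-positive cells, against 4.65 and 7.52 in ACKR4-negative cells.

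**Figure D4:**
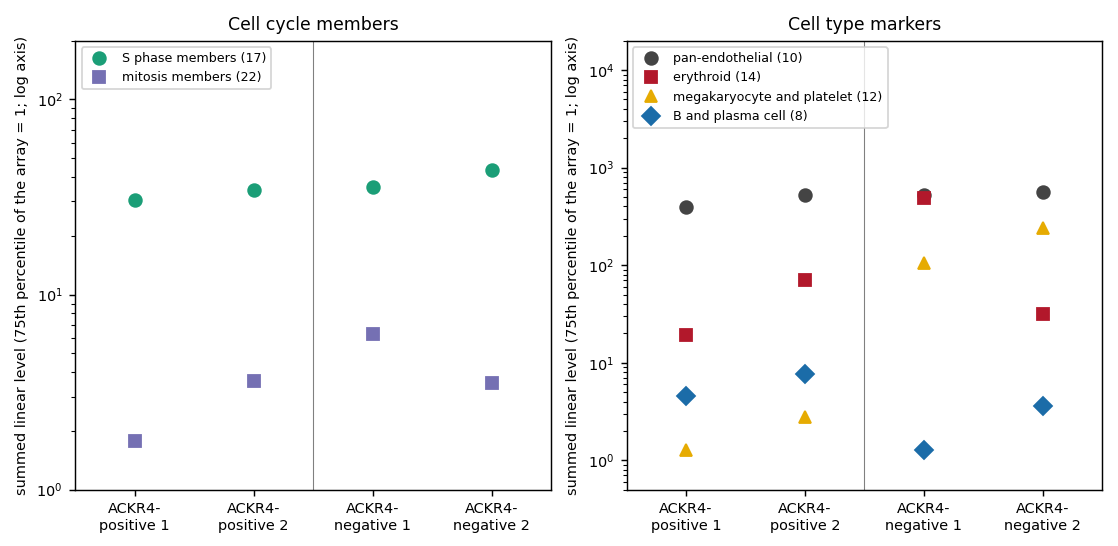
Summed linear level per array on a log axis, with the 75th percentile of each array as 1. The left panel shows the 17 S phase and 22 mitosis genes, and the right panel the pan-endothelial, erythroid, megakaryocyte and platelet, and B and plasma cell markers. The mitosis sum runs between 1.79 and 6.30 and the erythroid sum between 19.4 and 488, both lowest on ACKR4-positive 1 and highest on ACKR4-negative 1.

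Other genes of the cycle were read from 5 further lists. Of 33 tested S phase genes in a list of 40, limma called 1 lower and 0 higher, against 3.71% and 1.91% of all tested genes. At an unadjusted p under 0.05 it gave 9 lower and 0 higher, against 9.14% and 7.13%. The median of the 33 was -0.52. The gene that fell was Cdca7, an E2F and MYC target that acts with the remodeller Hells in DNA methylation. It read -4.05 and -3.97 in ACKR4-positive cells, against -0.97 and -0.47 in ACKR4-negative cells (-3.29 ± 0.31, limma adjusted p = 0.0139). The replicate block called 8 of the 33 lower and 0 higher, against 8.55% and 6.76% of all tested genes. Of the 33, 6 passed the filter only through the ACKR4-negative group. They include Cenpu and Hells, counted in the 8 and in the 9, and Rad51ap1, counted in the 9. The 8 included Cdc45, a helicase cofactor, at -1.12, Mcm10, an origin-firing factor, at -1.25, and Dbf4, the activator of the Cdc7 kinase, at -1.38. They also included Chaf1b, a histone chaperone subunit, at -1.80. Their limma adjusted p was 0.0124 to 0.0355 with the block and 0.111 to 0.343 without it, and these 4 are named after their values were seen.

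Of 35 tested genes in a list of 46 for G2 and mitosis, limma called 1 higher and 1 lower, against 1.91% and 3.71% of all tested genes. At an unadjusted p under 0.05 it gave 4 higher and 3 lower, against 7.13% and 9.14%. Of the 35, 6 passed the filter only through the ACKR4-negative group, among them Kif4 and Cdca3, which are counted in the 3. Another 2 passed only through the ACKR4-positive group. The median of the 35 was -0.31. Espl1, separase, the protease that cuts cohesin, rose in ACKR4-positive cells. It read 0.32 and -0.47 there, against -4.01 and -3.57 in ACKR4-negative cells (3.72 ± 0.40, limma adjusted p = 0.0177). Kif4, a chromosome-bound kinesin, fell by at least 6.71-fold, being not well above background on either ACKR4-positive array. It read -7.96 and -6.66 in ACKR4-positive cells and -2.36 and -3.49 in ACKR4-negative cells (limma adjusted p = 0.0341, and 0.173 with normexp). The replicate block called 3 of the 35 higher and 2 lower, against 6.76% and 8.55% of all tested genes.

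In the G1 list of D cyclins, CDKs, E2F and RB family genes, 24 of 25 were tested. Limma called 1 higher and 0 lower, against 1.91% and 3.71% of all tested genes. At an unadjusted p under 0.05 it gave 2 higher and 1 lower, against 7.13% and 9.14%. The median of the 24 was -0.01. Ccnd2 encodes cyclin D2, a G1 partner of the kinases CDK4 and CDK6, and rose in ACKR4-positive cells. It read 4.31 and 4.25 there, against 2.40 and 2.02 in ACKR4-negative cells. The groups were clearly apart in both sorts (2.07 ± 0.29, limma adjusted p = 0.0309). The block called 3 of the 24 higher and 1 lower, against 6.76% and 8.55% of all tested genes. Of 16 tested p53 target genes in a list of 18, limma called 1 lower and 0 higher, against 3.71% and 1.91% of all tested genes. At an unadjusted p under 0.05 it gave 3 lower and 2 higher, against 9.14% and 7.13%. The median of the 16 was 0.24. The gene that fell was Tnfrsf10b, a receptor for the death ligand TRAIL, with -2.05 and -2.78 in ACKR4-positive cells, against 0.67 and 0.61 in ACKR4-negative cells (-3.06 ± 0.36, adjusted p = 0.0207). The block called 1 p53 target higher and 2 lower, against 6.76% and 8.55% of all tested genes.

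Each of the 5 calls without the block in these lists was lost in some fit without 1 array. Such a fit keeps 1 array in 1 group, so a lost call cannot tell reliance on that array from fewer samples. Without 1 array, limma's adjusted p reached 0.177 for Ccnd2, 0.0952 for Espl1, 0.120 for Kif4, 0.0711 for Cdca7 and 0.120 for Tnfrsf10b. Their log2 fold changes kept their sign in each of those fits.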

How the data were processed

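The submitters' processing notes name Agilent Feature Extraction 10.7.3.1 as the software behind the spot signals. The authors' processed signal, a linear intensity, had background subtracted and spatial trends removed on each array, per the file headers. The authors deposited a second table of intensities with each array's 75th percentile at 1498 to 1506 and a lowest value of 15, which served as an alternative.

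Outlier spots (1.91% to 1.96% of each array) were dropped. A probe's level is the mean log2 processed signal of its remaining spots minus the 75th percentile of that array's non-control probes. Testing required more than 50% of the 4 spots well above background on each array of 1 group or both, and the brightest tested probe stood for its gene. Of 39429 probes, 27592 were named by accession through RefSeq, 3492 by current symbol and 174 through another probe, and 8171 kept the name in the files. Probe positions are on mm9, per the file headers. Genes were compared with limma 3.58.1 (lmFit, eBayes, 2-sided) in R 4.3.3, with jsonlite 2.0.0 and version 1.17.8 of data.table, and promoters with Python 3.11.15. Figures were drawn with pandas 2.3.3 and matplotlib 3.10.9. Tests were checked on simulated data. A bound on a fold raises the dim group to the lowest level well above background.

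In the sample titles 1 mouse number is shared by the ACKR4-positive and ACKR4-negative arrays of a replicate, and it is read here as the sort. Deviations of the number 1 arrays from their group means correlated at 0.605 between the groups. With 2 arrays per group, deviations of the number 2 arrays mirror these and add nothing. Replicates correlated at 0.961 in ACKR4-positive and 0.972 in ACKR4-negative cells. The fit without the replicate block is the one reported first. With a single slide, no slide block could be fitted.

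The members, the lists and the alternatives were chosen with earlier results of these data known. Values are given for called genes, for up to 4 genes per role with the smallest p, for both CDK inhibitors and for called genes of the other lists. Further members, and genes called with the block alone, are named to complete the account. Some genes of the marker lists are not reported here by name.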

Additional observations from a re-analysis of the deposited data

How the results depend on the processing

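Counts of called genes moved with the design and the arrays used. The 976 calls over all tested genes became 2657 with the replicate block and 441 with the stricter filter on dim probes, and lay between 107, without ACKR4-negative array 1, and 841, without ACKR4-positive array 2. The 1 call among cell cycle genes became 4 with the replicate block, 0 with no filter and 0 with the stricter filter, and 0 to 4 without 1 array. The S phase median of -0.57 was -0.50 with median centring, -0.53 with no filter, and -0.81 to -0.25 without 1 array. The mitosis median of -1.06 ran from -1.26 to -0.38 without 1 array. The cause of these moves was not tested, but fits with 1 array fewer rest on fewer samples. Median centring moved the median of all genes to 0.11. Of the cell cycle genes, 5 changed sign in some alternative while not called, which were Bub1b, Ccnb1, Gmnn, Mcm6 and Ube2c. Quantile normalization, median centring, the authors' table, averaged probes, kept outlier spots and a trended prior each called Cdkn1c alone. The number of arrays and, for 14 of the 41 genes, signal near background limit what can be seen.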
